A study of Homo sapiens with 40 samples.

Results

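Unstimulated spheres of HRAS-transformed mammary epithelial cells (MII) were compared with unstimulated spheres of the parental line (MI). The members were chosen by their labels, as the RNA-seq samples titled MII-Ctrl and MI-Ctrl, and no measured value entered the choice. They are 6 of the 40 samples of the series, with 3 biological replicates in each group. MI is MCF-10A, a spontaneously immortalised, non-tumorigenic human mammary epithelial cell line. MII is MCF-10AneoT (MCF-10A-HRAS on the labels), the derivative of MCF-10A that carries oncogenic HRAS. Both groups carry the genotype label WT, both were grown in 3D on ultra-low attachment plates, which make single cells gather into floating spheres, and neither received TGFβ. Each group is 1 cell line, so an effect of HRAS and any other difference that the lines have acquired in separate culture cannot be told apart. No label says how the replicate cultures were separated in time, and the p-values therefore measure the spread between these 3 and 3 samples.

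HRAS is a small GTPase that passes signals from growth factor receptors, such as those of the EGF family, to the RAF, MEK and ERK kinases. Active ERK switches on transcription factors and immediate-early genes, and with them some of its own inhibitors. These include dual-specificity phosphatases (DUSP) and the Sprouty proteins. GTPase-activating proteins are another kind of inhibitor, which turn RAS off. MCF-10A cells hold a basal-like epithelial state with some luminal features, need EGF to grow, and differentiate along a squamous path under some conditions. MCF-10AneoT is used as a premalignant model in the same series of lines.

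Between 19546521 and 25645025 fragments per MI-Ctrl library were counted on genes, and between 14124688 and 27759376 per MII-Ctrl library. No library stood apart: log2 CPM (counts per 1000000, after scaling for composition) correlated across genes with Pearson's r from 0.990 to 0.993 within a line and from 0.913 to 0.919 between the lines. Epithelial markers were present in both lines. CDH1, the epithelial cadherin, averaged 545 CPM in MI and 589 CPM in MII. CDKN2A and CDKN2B, which are deleted in MCF-10A, had 0 counts in each of the 6 libraries. Of the 9 leukocyte markers examined 6 were too low to test, among them PTPRC and CD3E, and MS4A1 was at 0 throughout. Of the 10 fibroblast markers 4 were too low to test, among them COL1A2 and PDGFRA. The fibroblast markers summed to 44.2 to 47.5 CPM in MI and 35.0 to 36.3 CPM in MII. Of the 7 endothelial markers 4 were too low to test, among them KDR and CLDN5, and the list summed to 32.6 to 36.3 CPM in MI and 119.6 to 122 CPM in MII. Single genes of these lists differed widely. PECAM1, an adhesion molecule of endothelial cells, had 10.1 CPM in MI and 109.01 CPM in MII, LYZ, lysozyme, had 0.27 and 37.2 CPM, and DCN, the proteoglycan decorin, had 12.05 and 0.0309 CPM. The part of other cell types in the results was not tested. Because these are bulk samples, fewer cells of a type and less RNA per cell cannot be told apart.

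The first question was how far the lines differ without stimulation. A differentially expressed gene (DEG) had an adjusted p under 0.05 in edgeR's quasi-likelihood test and an absolute log2 fold-change above 1, where a positive value means a higher level in MII. Of 17862 genes tested, 3586 were DEGs (20.1%), with 2225 higher (12.5%) and 1361 lower (7.62%) in MII. Replicates of a line lay close together, and the adjusted p alone was passed by 11474 genes (64.2%), of which 5665 were higher (31.7%) and 5809 lower (32.5%). The CPM of the 3 MII and the 3 MI libraries did not overlap for 67.2% of the genes tested. Each gene group is read against these shares and against the median log2 fold-change over all genes tested, 0.02.

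HRAS (ENSG00000174775; chromosome 11 from 532242 to 537321, GRCh38) was higher in MII. It stood at 42.5, 41.0 and 42.8 CPM in the MI-Ctrl libraries and at 225, 232 and 232 CPM in the MII-Ctrl libraries. The groups were far apart, at a log2 fold-change of 2.45 ± 0.04 (SE; adjusted p = 1.23e-45), or 5.45-fold. Per length, HRAS rose from 17.3 to 94.2 RPKM (CPM per kilobase of exon), where NRAS, a related RAS gene, had 19.3 and 16.7 RPKM. NRAS was slightly lower, at a log2 fold-change of -0.21 (adjusted p = 0.000127). The counts do not tell the transforming allele of HRAS from the cells' own.

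Among 30 genes of RAS signalling and ERK feedback, 17 were higher and 9 lower in MII at the adjusted p, and 10 against 1 were DEGs. Their median log2 fold-change was 0.51. Of the 9 inhibitors of the RAS pathway 6 were higher and 1 lower. RASAL1, a GTPase-activating protein that returns RAS to its inactive form, had 2.31, 2.49 and 3.01 CPM in MI and 150.1, 155 and 147 CPM in MII, a log2 fold-change of 5.87 ± 0.08, the largest of the group. RASA1, another GTPase-activating protein, rose from 88.4 to 374 CPM (log2 fold-change 2.08; named after its value was seen). Of the 11 genes that ERK induces 8 were higher and 3 lower. PHLDA1, an immediate-early gene, had 88.5, 86.7 and 85.2 CPM in MI and 636, 641 and 653 CPM in MII (log2 fold-change 2.89 ± 0.04). ETV4, an ETS factor downstream of ERK, had 10.7, 11.8 and 9.82 CPM in MI and 57.5, 62.3 and 56.5 CPM in MII (log2 fold-change 2.45 ± 0.07). Libraries of the lines did not overlap for any of these 4 genes. The ERK phosphatases were different, with 1 of 4 higher and 3 lower. DUSP7 and DUSP5 fell, at log2 fold-changes of -1.73 and -0.60, and CCND1, the D-type cyclin that ERK signalling induces, was lower in MII at 176, 169 and 177 CPM than in MI at 299, 289 and 279.6 CPM (log2 fold-change -0.73 ± 0.04).

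**Figure D1:**
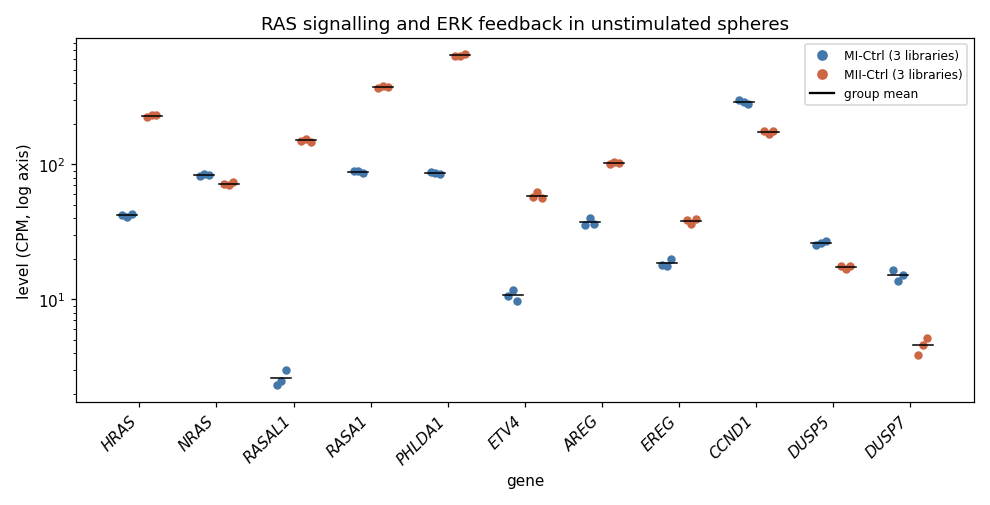
Levels of 11 genes of RAS signalling in each library, as CPM on a log axis, with 3 MI-Ctrl and 3 MII-Ctrl points per gene and a bar at each group's mean. HRAS, RASAL1, RASA1, PHLDA1 and ETV4 lie higher in all MII libraries, and CCND1, DUSP5 and DUSP7 lie lower.

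In the EGF family, 5 of 10 ligands were higher and 2 lower in MII, against 1 and 2 of 3 receptors. AREG, a ligand of the EGF receptor, averaged 37.2 CPM in MI and 102.2 CPM in MII (log2 fold-change 1.46), and EREG, a related ligand, rose by a log2 fold-change of 1.04. HBEGF, the heparin-binding ligand, fell from 214 to 67.0 CPM (log2 fold-change -1.67). Of the receptors, EGFR was lower (log2 fold-change -0.58), ERBB3 lower (log2 fold-change -0.23) and ERBB2 higher (log2 fold-change 0.20), all by less than the DEG threshold. The inhibitors of these receptors ERRFI1, LRIG1 and LRIG3 were all DEGs with higher levels in MII, at log2 fold-changes of 1.61, 1.44 and 1.74. AP-1 subunits, the dimeric factors that ERK activates, held no DEG: 4 of 10 were higher, with FOSL1 at a log2 fold-change of 0.55, and 4 were lower, with FOS at -0.64 and FOSL2 at -0.77. JUN was at 117 CPM in MI and 109.9 CPM in MII and did not pass the test.

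The largest differences between the lines were all-or-nothing in size. They are given here for the 12 genes in each direction with the largest log2 fold-change among DEGs that reached 10 CPM and did not overlap between the lines (1361 genes with a symbol met these conditions). MGP, matrix Gla protein, a secreted inhibitor of calcification and of BMP signalling, had 0.0795, 0.299 and 0.322 CPM in MI and 2767, 2627 and 2801 CPM in MII. It was nearly absent from each MI library and high in each MII library, at a log2 fold-change of 13.56 ± 0.09 (adjusted p = 5.14e-67). CDH19, a cadherin typical of neural crest derivatives, had 0, 0.199 and 0 CPM in MI and 289, 274 and 294 CPM in MII (log2 fold-change 12.02 ± 0.12). SOSTDC1, a secreted antagonist of BMP and WNT ligands, had no count in MI and 31.9, 31.9 and 27.8 CPM in MII, which makes it at least 654-fold higher against a floor of 3 counts over the MI group.

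KLK5 and KLK6, secreted serine proteases of the kallikrein family, rose together. KLK5 had 0.119, 0.0997 and 0.0537 CPM in MI and 275, 272 and 262 CPM in MII (log2 fold-change 11.40 ± 0.11). KLK6 had 0.239, 0.299 and 0.751 CPM in MI and 266, 301 and 288 CPM in MII (log2 fold-change 9.43 ± 0.10). Both genes lie next to each other on chromosome 19. GPRIN3 was at 275 CPM in MII and 0.498 CPM in MI, and SEMA3E, a secreted guidance cue, was at 96.0 and 0.194 CPM. The other higher genes of the 12 were MYEF2, WNK2, ITPRID1, MGAM2 and SNTB1, at 11.2 to 47.7 CPM in MII and a mean of at most 0.1 CPM in MI. WNK2, a kinase that restrains ERK signalling, had 2 counts in all of MI, a ratio of 1556 with a 95% counting interval from 430.4 to 12855.

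In the other direction, the 12 genes were of several kinds, with S100A8 and S100A7 of the S100 family among them. S100A8, a subunit of calprotectin, had 1427, 1485 and 1558 CPM in MI and 1.59, 1.32 and 1.85 CPM in MII, a log2 fold-change of -9.91 ± 0.07 (adjusted p = 6.41e-65). S100A7, psoriasin, had 326, 334 and 348 CPM in MI and 0.622, 1.01 and 0.751 CPM in MII (log2 fold-change -8.63 ± 0.08). Both were high in every MI library and close to absent in every MII library. SNCAIP, which encodes the synuclein partner synphilin, had 125, 125 and 129.6 CPM in MI and 0.0691, 0.278 and 0.0578 CPM in MII (log2 fold-change -9.53 ± 0.13). EMD, which encodes emerin of the inner nuclear membrane, had 19.7, 17.7 and 18.8 CPM in MI and not 1 count in MII, at least 379.6-fold lower. LCP1, the actin bundler plastin, fell from 77.4 to 0.297 CPM. ALOX15B, a lipoxygenase, had 29.4, 30.3 and 27.0 CPM in MI and 2 counts in all of MII, 877 times lower with a counting interval from 242 to 7248. Others of the 12 were ZNF160, TMTC1, DCN, LINC00839 and VNN1, at 11.5 to 29.6 CPM in MI and at most 0.0924 CPM in MII.

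More genes were expressed in only 1 of the lines. With at most 3 counts over the 3 libraries of a line and at least 1 CPM in every library of the other, 63 genes were seen in MII and 38 in MI. In MII 31 of these coded for proteins and 27 were long noncoding RNAs (lncRNA), against 30 and 8 in MI. The most abundant seen in MII was the lncRNA ENSG00000266976.3, at 117, 111.5 and 103.4 CPM. It lies on chromosome 19 from 28606688 to 28615229, and ENSG00000260725.1, a nearby lncRNA, was also seen only in MII at 8.85 CPM. After it came WNK2, SOSTDC1, ITPRID1 and MYEF2, described above. CHST9, a sulfotransferase, LINGO2 and NPY5R, a receptor of neuropeptide Y, were further examples at 10.3, 9.31 and 7.55 CPM. On the MI side, besides genes named above, were S100A12 at 9.12 CPM, ARSI, a sulfatase, at 8.95 CPM, KCNK15, a potassium channel, at 7.59 CPM, and OLR1, a scavenger receptor, at 7.47 CPM. KCNK15 and OLR1 had no count in MII and were at least 152-fold and 151-fold lower.

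The lines differed in epithelial identity genes. Of 28 basal genes tested, 8 were higher and 16 lower in MII, with a median log2 fold-change of -0.57. TP63, the transcription factor that maintains basal cells, had 53.001, 55.3 and 50.5 CPM in MI and 0.76, 0.487 and 0.693 CPM in MII, a log2 fold-change of -6.42 ± 0.12 (adjusted p = 4.99e-44). KRT5, the main basal keratin, had 107.95, 113 and 109.2 CPM in MI and 19.1, 18.9 and 20.9 CPM in MII (log2 fold-change -2.49 ± 0.06). Each MI library was above each MII library for both. KRT6A and DSC3, a desmosomal cadherin, fell as well, at log2 fold-changes of -4.87 and -2.47. KRT17, named after its value was seen, averaged 1324 CPM in MI and 343 CPM in MII. Not all basal keratins fell. KRT6B had 8.83, 9.18 and 7.09 CPM in MI and 144, 156 and 130.7 CPM in MII (log2 fold-change 4.10 ± 0.07), and KRT14, the usual partner of KRT5, rose from 1.61 to 8.77 CPM (log2 fold-change 2.42 ± 0.17). KRT6A and KRT6B are close paralogs that share sequence, and their counts are uncertain to that extent.

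Luminal genes moved the other way more often, with 21 of 33 higher and 11 lower (median 0.33). ELF5, PROM1 and PRLR, genes of luminal progenitors and of the response to prolactin, were higher by log2 fold-changes of 5.64, 3.64 and 3.10, and remained at low levels of 1.05, 2.22 and 6.97 CPM in MII. EPCAM, an epithelial adhesion molecule, had 68.6, 61.1 and 62.7 CPM in MI and 204, 191 and 187 CPM in MII (log2 fold-change 1.59 ± 0.05). GRHL2, a factor that maintains epithelial junctions, was slightly higher (log2 fold-change 0.22). The hormone-responsive genes ESR1, SPDEF, AGR2 and MUC1 were lower in MII, at log2 fold-changes of -1.21, -2.25, -2.08 and -1.38.

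Genes of keratinocyte differentiation gave the widest spread. Of 28 tested, 19 were lower and 9 higher in MII, all 28 passed the adjusted p, and 15 and 8 were DEGs (median -1.43). Among the lower were KRT4, a keratin of stratified mucosa (named after its value was seen), which fell from 144 to 0.659 CPM (log2 fold-change -7.62 ± 0.11), and the S100 genes described above. SPRR2A, a precursor of the cornified envelope, had 1.32 CPM in MI and no count in MII. Besides KLK5 and KLK6 the higher members included KLK8 and KLK7, the latter of which degrades corneodesmosomes, at log2 fold-changes of 5.47 and 4.12. KLK7 stood at 7.71, 6.63 and 8.37 CPM in MI and at 136, 133 and 125 CPM in MII. Genes of mucosal secretion were likewise divided, with 11 of 19 higher and 8 lower. CEACAM5 had 29.2, 31.3 and 28.0 CPM in MI and 579, 585 and 593 CPM in MII (log2 fold-change 4.31 ± 0.04), and its paralog CEACAM6 rose from 100.96 to 787 CPM. LCN2, an antimicrobial lipocalin, rose from 251 to 1369 CPM, and BPIFB1, a protein of airway mucus, from 46.8 to 318 CPM. The acute-phase genes SAA1 and SAA2, near-identical copies of each other, fell, at log2 fold-changes of -5.25 and -5.11. PI3, the protease inhibitor elafin, and the complement genes CFB and C1S also fell, at log2 fold-changes of -4.83, -3.89 and -4.65.

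Genes of the cell cycle were lower in MII almost without exception. Of 50 S phase genes 49 were lower and 0 higher, and 26 were DEGs, with a median log2 fold-change of -1.02. Of 50 mitotic genes 48 were lower and 1 higher, and 41 were DEGs, with a median of -1.87. POLA1, a subunit of DNA polymerase alpha, was the S phase gene without a call, and WEE1, the kinase that holds back CDK1, the mitotic gene without one. SMC4, a condensin subunit, was the only mitotic gene higher in MII (log2 fold-change 0.26). E2F2, an activator of S phase genes, had 29.98, 32.5 and 34.4 CPM in MI and 1.59, 1.46 and 1.39 CPM in MII, the largest fall of the S phase genes (log2 fold-change -4.45 ± 0.12). ORC1, a subunit of the origin recognition complex, had 4.97, 6.08 and 4.78 CPM in MI and 1.31, 1.70 and 1.39 CPM in MII (log2 fold-change -1.80 ± 0.20). CDK1, the kinase that starts mitosis, had 43.5, 44.2 and 49.0 CPM in MI and 10.3, 10.7 and 11.4 CPM in MII (log2 fold-change -2.07 ± 0.07; adjusted p = 2.97e-31). No MII library reached the lowest MI library for these 3 genes. CCNB1, the cyclin of CDK1, fell as well (log2 fold-change -2.02 ± 0.07), and UBE2C, KIF14, CCNA2 and NCAPH had the lowest log2 fold-changes of the mitotic genes, at -2.71, -2.47, -2.42 and -2.33. BRCA1, which repairs DNA in S phase, also fell (log2 fold-change -0.95 ± 0.10).

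Promoters of these genes are known for elements of different kinds. Factors of the E2F family bind near the start of S phase genes, while many mitotic genes carry a CHR (TTTGAA) together with CCAAT boxes. Promoter sequences came from RefSeq (GRCh38.p14), which held the window from 250 bases before to 50 bases after the start for 11872 of the genes tested, by symbol. An E2F motif (TTTCCCGC, TTTGGCGC, TTTCGCGC or TTTGCCGC on either strand) occurred in 23 of 44 promoters of S phase genes (52.3%), against 5.16% of all genes tested. A CHR occurred in 28 of 41 promoters of mitotic genes (68.3%), against 10.4% of all, and a CHR with at least 1 CCAAT box in 21 of them (51.2%), against 4.35% of all. These shares describe the gene lists and not the DEGs as a whole. Among 889 promoters of DEGs lower in MII, an E2F motif occurred in 6.07% and a CHR in 16.8%. Among 1273 promoters of DEGs higher in MII, the shares were 2.36% and 11.9%. A CHR with a CCAAT box occurred in 80 promoters of the lower and 51 of the higher DEGs. The 250 bases before the start are shown for 2 S phase and 2 mitotic genes, which were picked after their values were seen. They had the lowest log2 fold-change among DEGs of their list whose window holds the motifs. Capitals mark the E2F motif in E2F2 and E2F1, and CHR motifs and CCAAT boxes, on either strand, in TOP2A and HMMR. E2F2 lies on the minus strand of chr1:23531234-23531483, E2F1 on the minus strand of chr20:33686386-33686635, TOP2A on the minus strand of chr17:40417897-40418146 and HMMR on the plus strand of chr5:163460382-163460631.
E2F2: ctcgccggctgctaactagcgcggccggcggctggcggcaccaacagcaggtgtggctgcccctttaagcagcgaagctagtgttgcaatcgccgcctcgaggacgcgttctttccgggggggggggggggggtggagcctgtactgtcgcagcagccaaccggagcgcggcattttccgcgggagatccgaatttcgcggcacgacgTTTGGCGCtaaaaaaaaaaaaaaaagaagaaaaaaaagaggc
E2F1: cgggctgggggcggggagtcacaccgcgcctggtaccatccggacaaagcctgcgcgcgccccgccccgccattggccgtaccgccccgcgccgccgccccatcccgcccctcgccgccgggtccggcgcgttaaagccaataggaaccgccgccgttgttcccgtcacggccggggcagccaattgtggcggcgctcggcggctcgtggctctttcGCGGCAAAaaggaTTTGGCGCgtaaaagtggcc
TOP2A: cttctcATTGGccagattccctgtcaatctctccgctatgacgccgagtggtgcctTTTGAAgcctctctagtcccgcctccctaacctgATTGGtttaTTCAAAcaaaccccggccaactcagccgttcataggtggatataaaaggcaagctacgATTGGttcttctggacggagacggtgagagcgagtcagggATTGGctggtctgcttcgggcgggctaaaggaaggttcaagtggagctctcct
HMMR: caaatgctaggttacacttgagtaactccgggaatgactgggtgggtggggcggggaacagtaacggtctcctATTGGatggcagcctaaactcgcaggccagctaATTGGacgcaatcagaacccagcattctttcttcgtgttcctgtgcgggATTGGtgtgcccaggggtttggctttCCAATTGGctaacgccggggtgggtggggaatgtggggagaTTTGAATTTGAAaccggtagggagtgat
E2F2 and E2F1 share the motif TTTGGCGC within 50 bases of the start. In HMMR both CHR motifs adjoin each other, and a CCAAT box and its reverse overlap, which makes 1 longer run of capitals. E2F1, TOP2A, the topoisomerase of dividing cells, and HMMR, a spindle protein, had log2 fold-changes of -2.20, -2.19 and -2.12. A match describes these letters only and is not a bound site.

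Of 12 regulators of the G1 phase 3 were higher and 8 lower in MII, with a median of -0.31. CDKN1A, the CDK inhibitor p21, had 394, 399.9 and 409 CPM in MI and 564, 574 and 553 CPM in MII (log2 fold-change 0.49 ± 0.03). The lines did not overlap, and the rise was below the DEG threshold. CDKN1C, the inhibitor p57, rose from a low level of 3.43 CPM (log2 fold-change 1.08), and CDK6, the kinase of the D-type cyclins, rose as well (log2 fold-change 0.52). CCND3, CDKN2C and the pocket protein gene RBL1 fell, at log2 fold-changes of -1.35, -1.49 and -1.47. Of 23 targets of p53, which CDKN1A belongs to, 15 were higher and 3 lower in MII, with a median of 0.37. GDF15, a stress cytokine, rose from 164 to 481 CPM (log2 fold-change 1.55), and the nucleotide synthesis gene RRM2B and the apoptosis gene BBC3 rose, at log2 fold-changes of 1.32 and 1.10. MDM2, at 262 CPM in MI and 252 CPM in MII, did not pass the test, and TP53I3 was lower (log2 fold-change -1.66). Histone genes of the replication-dependent kind, made during S phase without a poly(A) tail, were lower in 35 of 46 cases and higher in 4 (median -0.68). H3C8, H1-5 and H3C2 fell, at log2 fold-changes of -2.63, -2.29 and -2.12. Copies of histone genes are alike in sequence, so that single copies are uncertain.

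**Figure D2:**
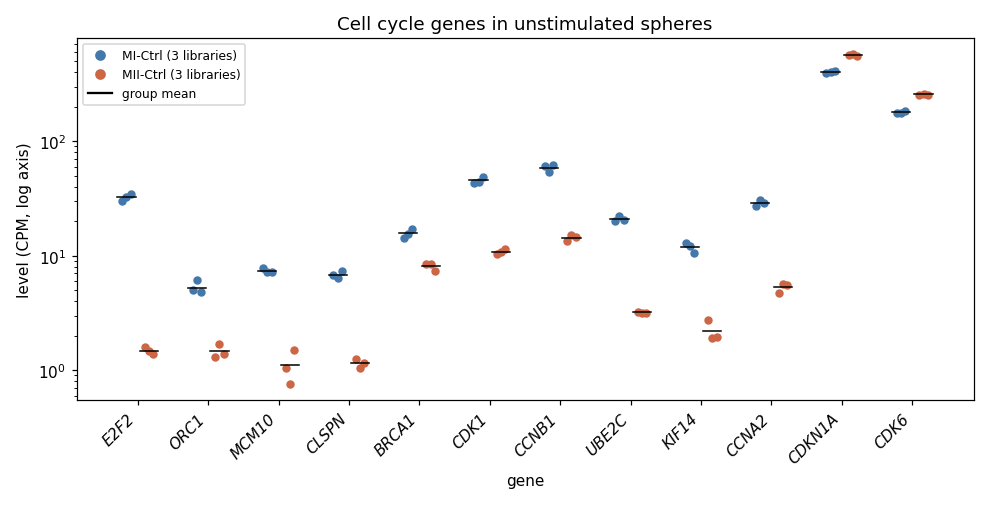
Levels of 12 genes of the cell cycle in each library, as CPM on a log axis, with 3 MI-Ctrl and 3 MII-Ctrl points per gene and a bar at each group's mean. The S phase and mitotic genes from E2F2 to CCNA2 lie lower in all MII libraries, and CDKN1A and CDK6 lie higher.

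Genes of cytokines, chemokines and prostaglandin synthesis were mostly lower in MII, with a median of -2.18 over 24 genes, of which 19 were lower and 4 higher in MII. The 3 prostaglandin genes among them held 2 lower and 1 higher. CXCL8, the neutrophil attractant interleukin-8, had 132, 138 and 143 CPM in MI and 8.29, 9.36 and 7.80 CPM in MII (log2 fold-change -3.99 ± 0.07; adjusted p = 1.66e-47). Its relatives CXCL1, CXCL2 and CXCL3 fell, at log2 fold-changes of -3.42, -2.72 and -2.18. IL33, an alarmin, had 16.6, 15.96 and 16.7 CPM in MI and 0.0691, 0 and 0.289 CPM in MII (log2 fold-change -7.29 ± 0.26). IL1A, IL1B and their antagonist IL1RN were lower together, at log2 fold-changes of -3.35, -2.18 and -2.47. PTGES, a synthase of prostaglandin E, fell from 1234 to 308 CPM. The 4 genes higher in MII were IL18 (log2 fold-change 0.54), CCL28 (log2 fold-change 0.67), LIF (log2 fold-change 0.88) and PTGS1 (log2 fold-change 1.54).

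NF-kB is the factor family that drives many of these cytokines, and its target inhibitors serve as its feedback. TNFAIP3, the inhibitor A20, had 60.9, 58.7 and 56.8 CPM in MI and 6.84, 5.63 and 5.08 CPM in MII (log2 fold-change -3.35 ± 0.08). NFKBIA, the inhibitor IkB alpha, had 380.0, 379 and 397 CPM in MI and 82.4, 84.1 and 82.0 CPM in MII (log2 fold-change -2.22 ± 0.04), and BIRC3 fell (log2 fold-change -1.78). The lines did not overlap for these genes. Of the 14 members tested 8 were lower and 5 higher, among the latter NFKBIZ (log2 fold-change 1.07) and TRAF1 (log2 fold-change 1.28). Interferon-stimulated genes were lower in 20 of 34 cases and higher in 9 (median -0.42). EPSTI1, IFITM3, IFIT1 and MX2 fell, at log2 fold-changes of -4.32, -2.32, -2.22 and -2.17, whereas IFI35, ISG20, IRF9 and IRF7 rose, at log2 fold-changes of 1.76, 1.02, 0.98 and 0.86. Among 18 genes of antigen presentation 11 were lower and only CD74, the invariant chain, was higher (log2 fold-change 1.53). HLA-B, a class I heavy chain, fell (log2 fold-change -1.37), while HLA-C and B2M did not pass the test, at 318 and 1248 CPM in MII. HLA genes vary between alleles and share reads, which leaves their counts uncertain.

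Genes of epithelial-mesenchymal transition (EMT) did not move as a group. Of 39 tested 17 were higher and 17 lower in MII, with a median of 0.03. SNAI1, an EMT transcription factor, did not pass the test, at 20.9, 20.1 and 17.6 CPM in MI and 24.2, 21.4 and 16.99 CPM in MII. SNAI2, which encodes SLUG, was lower at 1.80, 1.39 and 1.62 CPM in MII than at 4.73, 4.59 and 4.08 CPM in MI (log2 fold-change -1.51 ± 0.21). ITGB3, the beta 3 integrin, had 2.23, 2.09 and 1.88 CPM in MI and 130.7, 127 and 128.9 CPM in MII (log2 fold-change 5.95 ± 0.08). THBS1, thrombospondin 1, had 18.3, 20.4 and 17.8 CPM in MI and 376, 384 and 386 CPM in MII (log2 fold-change 4.34 ± 0.05). PLAU, the urokinase plasminogen activator, had 128.7, 128 and 130.4 CPM in MI and 8.84, 12.1 and 9.88 CPM in MII (log2 fold-change -3.61 ± 0.07), and L1CAM, an adhesion molecule, fell (log2 fold-change -3.22). CDH11, a mesenchymal cadherin, had 0.0311 CPM in MI and 1.54 CPM in MII. Integrins were higher in 9 of 16 cases and lower in 2 (median 0.38), with ITGB5, ITGB8 and ITGB6, which pair with the alpha V chain, higher at log2 fold-changes of 2.25, 1.49 and 1.47, and the fibronectin receptor chain ITGA5 lower at -1.93. ITGAV itself did not pass the test, at 301 CPM in MII. Matrix proteases and their inhibitors were lower in 11 of 21 cases, among them the inhibitor SERPINB2 (log2 fold-change -7.24) and the metalloproteases MMP10 (log2 fold-change -5.86), MMP1 (log2 fold-change -4.23) and MMP28 (log2 fold-change -3.23), and higher in 6, with MMP7, matrilysin, at 4.68.

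The TGFβ pathway was compared here in spheres that received none. Its 44 tested genes were higher in 23 cases and lower in 11 (median 0.14). Ligands changed most. TGFB2 had 1.63, 1.60 and 1.72 CPM in MI and 82.3, 81.5 and 82.5 CPM in MII (log2 fold-change 5.64 ± 0.09; adjusted p = 9.49e-48), and INHBA, the activin A chain, had 14.2, 14.8 and 15.5 CPM in MI and 104.9 to 107.2 CPM in MII (log2 fold-change 2.84 ± 0.06). TGFB1 went the other way, from 13.8 to 4.98 CPM (log2 fold-change -1.45). Targets split as well. ID3, a target of BMP signalling, was lower in MII (log2 fold-change -1.81), while CCN2, a matricellular target, was higher (log2 fold-change 3.10). Of the 9 inhibitors of the pathway tested, 6 were higher and 2 lower, with FSTL3 among the latter (log2 fold-change -1.61). The SMAD factors SMAD1, SMAD2 and SMAD4 did not pass the test. Targets of YAP and TEAD were higher in 8 of 13 cases and lower in 4, with CCN1 at 0.72 and AXL at -2.06.

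Lineage transcription factors included several of the SOX family. SOX9, a factor of luminal progenitors, had 32.6, 32.8 and 29.0 CPM in MI and 153, 159 and 145 CPM in MII (log2 fold-change 2.27 ± 0.05). SOX4 had 212, 200.3 and 193 CPM in MI and 404, 396 and 386 CPM in MII (log2 fold-change 0.97 ± 0.04), just under the DEG threshold. SOX6, SOX5 and SOX13 rose, at log2 fold-changes of 3.30, 2.69 and 1.97, and SOX15 fell from 22.98 to 1.09 CPM (log2 fold-change -4.33). MYC fell from 173 to 69.8 CPM (log2 fold-change -1.32 ± 0.04), and the epithelial factor KLF5 fell (log2 fold-change -1.27). In all 8 of these 18 factors were higher and 9 lower. Of 13 Notch genes 5 were higher and 7 lower. MFNG and LFNG, which modify Notch receptors, rose, at log2 fold-changes of 5.36 and 1.44. The ligands JAG1 and JAG2 and the target HES1 fell, at log2 fold-changes of -0.76, -1.26 and -0.26.

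Metabolic groups moved in both directions. Targets of NRF2, the factor of the oxidative stress response, and the aldo-keto reductases were together higher in 14 of 18 cases and lower in 3 (median 0.62). AKR1C2, an aldo-keto reductase, had 605, 607 and 637 CPM in MI and 2425, 2317 and 2322 CPM in MII (log2 fold-change 1.93 ± 0.04). Its near-identical neighbours AKR1C1 and AKR1C3 rose, at log2 fold-changes of 1.15 and 1.49. Fragments that map to several places were left out, so that the counts of these copies are uncertain. SLC7A11, the cystine transporter, rose (log2 fold-change 1.91), and AKR1B1 fell (log2 fold-change -1.81). Aldehyde and retinoid genes were mixed, with 6 of 18 higher and 9 lower. ALDH3A1 fell from 271 to 33.2 CPM (log2 fold-change -3.03) and DHRS9, a retinol dehydrogenase, rose (log2 fold-change 1.83). Glycolysis genes were lower in 17 of 21 cases and higher in 2, the latter being HK2, hexokinase 2 (log2 fold-change 1.34), and PFKFB3, which activates glycolysis through fructose bisphosphate (log2 fold-change 1.28). GAPDH fell (log2 fold-change -0.90). Hypoxia genes were lower in 13 of 23 cases, with NDRG1 at -2.59 and CA9 at -3.78, and higher in 7, with VEGFA at 0.91. Cholesterol synthesis genes were lower in 13 of 24 cases and higher in 8, with the synthase gene HMGCS1 at 1.28.

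Subunits of oxidative phosphorylation were lower in 40 of 46 cases and higher in 1, with no DEG and a median of -0.54. The gene that rose was NDUFA8, a complex I subunit (log2 fold-change 0.32). Cytosolic ribosomal protein genes were lower in 73 of 78 cases and higher in 1, with 3 DEGs and a median of -0.64. RPS21 fell furthest, from 672, 678 and 718 CPM in MI to 232, 239 and 230.5 CPM in MII (log2 fold-change -1.56 ± 0.04), and RPS6, at 1763, 1798 and 1914 CPM in MI and 2155, 1979 and 2104 CPM in MII (log2 fold-change 0.19 ± 0.04), was the gene that rose. RPL7A and RPL12 came next in that order, at log2 fold-changes of 0.07 and 0.01, and did not pass the test. RPS6, RPL7A, RPL12 and NDUFA8 lie on chromosome 9, and RPS21 lies on chromosome 20.

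Those 2 chromosomes stood apart from all others. The median log2 fold-change over tested protein-coding genes was 0.53 on chromosome 9 (550 genes) and -0.62 on chromosome 20 (348 genes), and lay between -0.11 and 0.02 on the 21 others. On chromosome 9 478 genes (86.9%) had a positive value, against 45.4% of all 13218 protein-coding genes tested, and 23.8% were DEGs higher in MII, against 9.89% of all. On chromosome 20 290 genes (83.3%) had a negative value, and 21.0% were DEGs lower in MII, against 8.34% of all. The medians correspond to a level 1.44 times as high for chromosome 9 and 1.54 times lower for chromosome 20. Over genes at 10 CPM or more they were 0.49 and -0.65. In the libraries of stimulated spheres, none of which enter this comparison, the medians of MII-TGFb against MI-TGFb were 0.55 on chromosome 9 and -0.58 on chromosome 20, with the others between -0.11 and 0.05. Chromosomes were singled out after their values were seen, no test was made, and copy number was not measured. The cell cycle groups did not rest on these chromosomes: without their genes, the median was -0.99 over 47 S phase genes and -1.87 over 45 mitotic genes, with 46 and 43 lower. Other genes named above lie there too, among them WNK2, LINGO2 and LCN2 on chromosome 9, all higher in MII. On chromosome 20, RBL1, JAG1, PI3 and KCNK15 were lower in MII and BPIFB1 was higher.

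Runs of 15 neighbouring genes showed where along the genome differences gathered. Of 869 runs, 27 had a median log2 fold-change above 0.5 and 27 below -0.5. Chromosome 9 held 18 of the former among its 36 runs, and chromosome 20 held 16 of the latter among its 23, while the 810 runs of the other chromosomes held 9 and 11. Several of these are gene families. The run with the lowest median, -5.16, lay on chromosome 1 from 153031203 to 153616986 (GRCh38) and holds SPRR1B, SPRR2A, PGLYRP3, PGLYRP4 and 11 S100 genes, and 12 of its 15 genes were DEGs lower in MII. A run of 10 keratin genes and 5 neighbours on chromosome 12 had a median of -0.88, and a run on chromosome 17 with 12 type I keratins among its 15 genes had 0.96. Protocadherin genes of the beta and gamma clusters on chromosome 5 made up all but 1 gene of 2 runs with medians of 0.79 and 1.04. The gamma genes share their last exons, and fragments that overlap several genes were left out, which leaves their counts uncertain. A run on chromosome 6 that begins at H3C10 and holds 12 histone genes had a median of -0.83.

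The DEGs in the 2 directions differed in RNA class. Protein-coding genes made up 74.0% of the genes tested. They were 58.7% of the DEGs higher in MII (95% Clopper-Pearson interval 56.7% to 60.8%) and 81.0% of those lower (78.9% to 83.1%). The intervals take genes as independent, although differences gathered in runs of neighbours, and do not cover the spread between cultures. The lncRNAs were 17.7% of the genes tested, 29.4% of the higher DEGs and 11.6% of the lower ones. Their share of all counts was 2.33% to 2.46% in MI and 3.08% to 3.18% in MII. Small nucleolar RNAs (snoRNA), which guide modification of ribosomal RNA, went the other way. Of 68 tested, 26 were DEGs lower in MII (38.2%) and 4 were DEGs higher (5.88%), against 7.62% and 12.5% of all genes tested. They gave 0.438% to 0.485% of counts in MI against 0.172% to 0.21% in MII. The mitochondrial genome gave 0.687% to 0.789% of counts in MI and 1.41% to 1.66% in MII. Strand was ignored in counting, and a lncRNA that overlaps another gene may hold reads of that gene. These shares moved with the lines, and their part in the results was not tested.

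The same contrast of lines could be read in spheres stimulated with TGFβ, in 6 other libraries. There 3138 of 15878 genes tested were DEGs (19.8%), and 31.1% were higher and 31.6% lower in MII at the adjusted p. MI-TGFb replicate 2 stands apart, with counts on 36371 genes against 27862 and 29871 in its group. Of the 3586 DEGs of unstimulated spheres, 2955 were tested there, 2776 (93.9%) had the same direction and 2524 also passed the adjusted p. Over all genes tested in both, 80.4% had the same direction. Without MI-TGFb replicate 2 these numbers were 3016, 2840 and 2606. DEGs higher in MII kept their direction in 98.3% of cases and DEGs lower in MII in 87.5%. The interaction of line and TGFβ passed the adjusted p for 1189 of the DEGs, against 22.4% of all 18591 genes in that fit.

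S phase and histone genes did not keep their direction. In stimulated spheres 35 of 50 S phase genes were higher and 3 lower in MII, with a median log2 fold-change of 0.38, where unstimulated spheres had -1.02. CDK1 had a log2 fold-change of 0.21 there (0.090 without MI-TGFb replicate 2) and -2.07 without stimulation (interaction adjusted p = 8.68e-18). Histone genes likewise were higher in 38 of 45 cases. Mitotic genes kept a negative median, but at -0.29 where unstimulated spheres had -1.87. Of 50 mitotic genes 25 were lower and 10 higher, against 48 and 1 without stimulation. The medians of EMT, NF-kB, antigen presentation, aldehyde and retinoid, and Notch genes also changed sign, to -0.42, 0.17, 0.10, 0.15 and 0.20. Keratinocyte genes at -1.33, basal genes at -0.41, NRF2 targets with the reductases at 0.93 and ribosomal protein genes at -0.86 kept the sign of their median. Cytokine genes kept it at a smaller size, -0.77 against -2.18. Interferon-stimulated genes had a median of -0.0083 against -0.42, with 13 of 33 higher and 10 lower. The difference between the settings was not tested for whole groups. HRAS, the gene that defines the line, had a log2 fold-change of 1.75 in stimulated spheres, smaller than without stimulation (interaction -0.70, adjusted p = 4.05e-10).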

How the data were processed

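RNA was measured in 3 MII-Ctrl and 3 MI-Ctrl libraries, made with a stranded total RNA kit after removal of ribosomal RNA. The deposited values are raw counts of fragments per gene, which the authors made by trimming with Trimmomatic, aligning to GRCh38.p13 with STAR in 2-pass mode and counting with featureCounts 2.0.0. Strand was ignored in counting, and fragments that map to several places or overlap several genes were left out. Symbols came from GENCODE names, which matched 42028 of the 60708 gene identifiers. Tables were read with pandas 2.3.3, and scipy 1.17.1 gave the intervals.

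The groups came from the sample labels. Counts were tested with edgeR 4.0.16 (R 4.3.3, limma 3.58.1), using TMM scaling, filterByExpr, the quasi-likelihood test and Benjamini-Hochberg adjustment over all genes tested. Adjusted p-values printed here are from that test. CPM values use TMM-scaled library sizes. DESeq2 1.42.0, other scalings, other filters, a length correction, a block, all 12 sphere libraries in 1 fit and the removal of each library were tried as alternatives. The code was tested on simulated data. An exact permutation test of 3 against 3 cannot go below 0.1 and was not used. Counting intervals and floors of 3 counts cover counting error only.

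The genes and gene lists were chosen with earlier results of these data known. Named genes are RAS genes, the genes that the study discusses, the 12 in each direction with the largest log2 fold-change among DEGs with a symbol, at 10 CPM or more and without overlap, the leading members of each list, genes seen in 1 line only and genes of the runs described. Some genes that meet these rules are not reported here. SOD2 and H2AC18 were not matched in the symbol table, and DDX58 is listed there as RIGI. Plots were drawn with matplotlib 3.10.9.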

Additional observations from a re-analysis of the deposited data

Results flagged for a closer look

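In a fit of 12 libraries, the interaction of line and TGFβ passed the adjusted p for 16 of 37 genes examined. These 37 were RAS genes, genes that the study discusses and 23 genes with the largest log2 fold-change, and so not a random draw. Over all 18591 genes in that fit 4156 passed (22.4%), and among the 3586 DEGs of unstimulated spheres 1189 did. Values below are the stimulated minus the unstimulated log2 fold-change of MII against MI. Among genes of the cell cycle, CDK1 (2.28, adjusted p = 8.68e-18), ORC1 (1.92, adjusted p = 2.66e-08), BRCA1 (1.59, adjusted p = 4.52e-12), CCND1 (0.96, adjusted p = 3.34e-15) and CCNB1 (0.58, adjusted p = 0.000154) had positive values. BRCA1 and CCND1 had log2 fold-changes of 0.65 and 0.24 in stimulated spheres, with the sign opposite to unstimulated spheres, whereas CCNB1 stayed negative at -1.44.

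HRAS had -0.70 (adjusted p = 4.05e-10), EPCAM -0.43 (adjusted p = 2.48e-05) and GRHL2 0.27 (adjusted p = 0.00148). Of the genes high in MII, MGP had -2.17 (adjusted p = 1.07e-06), WNK2 -4.56 (adjusted p = 1e-05), GPRIN3 -1.82 (adjusted p = 1.57e-05), SNTB1 -2.31 (adjusted p = 0.004), KLK6 -1.08 (adjusted p = 0.0168) and SOSTDC1 -3.86 (adjusted p = 0.0461). Of the genes high in MI, S100A8 had 2.03 (adjusted p = 1.53e-10) and S100A7 2.22 (adjusted p = 0.000273). All 8 of these kept the direction of their difference in stimulated spheres, at a smaller size. The low line had few counts for them, so that the fitted values rest on few fragments. In 15 of the 16 genes, all but GRHL2, the difference was smaller in stimulated spheres. The 8 genes high in 1 line were picked for the size of their unstimulated difference, and the interaction uses those same libraries. A smaller size for them in stimulated spheres is thus favoured by the choice of genes. The stimulated log2 fold-changes without MI-TGFb replicate 2, which stands apart, were -1.52 for CCNB1, 0.63 for BRCA1, 0.088 for ORC1 and 0.090 for CDK1, against 0.13 and 0.21 with it for ORC1 and CDK1. Without that library SOSTDC1 stood at 9.64 and WNK2 at 6.70, against 8.35 and 5.75 with it, and the folds of the other genes here moved by less than 1.5 times. No cause was tested.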

How the results depend on the processing

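The 3586 DEGs (2225 higher, 1361 lower) were recounted under 15 alternatives. With at least 10 counts asked of every library they were 2146 (1309 higher, 837 lower), a filter that removes genes silent in 1 line, and 4681 without a filter on low counts. Leaving out 1 library gave 3793 to 3926 (2293 to 2478 higher, 1416 to 1500 lower). Library totals alone shifted the median log2 fold-change by 0.092. Without genes on chromosomes 9 and 20, an alternative added after seeing the data, 3203 remained.

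Replicates with the same number did not deviate together (correlations -0.026, 0.012 and -0.0019), and a replicate block gave 3587 DEGs, 2220 higher and 1367 lower. With a gene length correction there were 3569, and with both the block and the length correction 3560.

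The number of members past the adjusted p, both directions together, stayed within 1.5 times for 32 of 34 gene lists. The split between directions was checked only for a change of majority, which lists with equal numbers cannot show. The exceptions, with 10 counts in every library, were the fibroblast markers, with 2 called (both higher) in place of 6, and the leukocyte markers, with 1 in place of 3. The median of chromosome 9 was 0.62 with library totals, 0.50 without a filter, 0.51 with the length correction, 0.52 with the block and length correction, and 0.52 to 0.54 without 1 library. That of chromosome 20 was -0.53 with library totals, -0.68 without a filter and -0.60 with 10 counts in every library.

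Of 203 genes named, 190 kept their direction and their side of the threshold under each alternative that tested them. Changes of sign were met only in genes without a call. With library totals B2M stood at 0.050, ITGAV 0.051, JUN 0.00053, MDM2 0.035, SMAD1 0.024, SMAD2 0.028 and SMAD4 0.089. Without a filter HLA-C stood at -0.029, RPL12 -0.026 and WEE1 -0.026. With 10 counts in every library SMAD4 stood at 0.019. With the length correction WEE1 stood at -0.027, and with the block too at -0.031. Without 1 library the ranges were -0.012 to 0.019 for HLA-C, -0.018 to 0.038 for RPL12, -0.029 to 0.019 for SMAD4, -0.013 to 0.20 for SNAI1 and -0.023 to 0.024 for WEE1. Counted over genes and alternatives, a call was gained with the sign kept in 16 cases and lost in 2, the cases below among them. A single library decided 3 calls. JUN passed without MI-Ctrl replicate 2 (adjusted p = 0.0221) or MII-Ctrl replicate 3 (adjusted p = 0.0354), RPL7A without MI-Ctrl replicate 3 (adjusted p = 0.0407) or MII-Ctrl replicate 2 (adjusted p = 0.0448), and CDH1 failed without MII-Ctrl replicate 1 (adjusted p = 0.0697). The cause was not tested. Counts of 3 or fewer per line limit the folds of genes seen in 1 line.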
